A study of Homo sapiens with 15 samples.

Results

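The unfolded protein response of the endoplasmic reticulum (ER) was followed through 10 listed genes: the regulators ATF6 and XBP1, the chaperones HSPA5, HSP90B1, CALR and CANX, the HSPA5 partners DNAJB9 and SDF2L1, the disulfide isomerase PDIA4 and the degradation factor HERPUD1. The members were taken by name, with no measured value in the rule. All 10 were found among the 31352 genes of the table and all 10 were among the 15122 genes tested. Polyadenylated RNA of a human cell line was sequenced in 5 groups with 3 libraries each, 15 libraries in all. The control group (EV) carried an isogenic empty vector, and the other groups carried doxycycline-induced NICD1, NICD2, NICD3 or NICD4, the intracellular domains of the 4 NOTCH receptors. The dose and duration of doxycycline, whether EV cells received it and whether each line was 1 clone were not given in the sources used here. Nothing states that the 3 libraries of a group came from separate cultures, so each p-value sets a difference against a spread that may be technical. Groups followed the sample titles. For NICD4 replicate 1, other label fields name NICD3.

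The ER folds secreted and membrane proteins, and unfolded proteins in its lumen draw the chaperone HSPA5 (BiP) away from 3 membrane sensors. IRE1, encoded by ERN1, splices the mRNA of XBP1 into the form that encodes an active transcription factor. ATF6 is carried to the Golgi and cut there, which frees a transcription factor, and PERK, encoded by EIF2AK3, slows translation while that of ATF4 rises. XBP1 and ATF6 act on ER stress response elements in the promoters of chaperone and degradation genes. Counts per gene do not tell spliced from unspliced XBP1 mRNA and do not show the cutting of ATF6.

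The source labels call the cells HCT116, which is a colorectal carcinoma line, but U373, a glioma line, is named in the sample descriptions and in the column headers. The 10 colorectal epithelial markers summed to between 2096 and 2673 CPM (the usual count unit relative to the scaled library total) in EV and to between 9524 and 23220 CPM in the NICD groups. The 12 astrocyte and glioma markers summed to between 48.6 and 87.5 CPM over all groups. AQP4, OLIG2 and SOX2 were at 0 in all 4 NICD groups, FABP7 in EV, NICD1, NICD2 and NICD4, and CDH17, an epithelial marker, in NICD2 and NICD4. The part of these marker differences in the results was not tested. Total counted reads ran from 11630195 to 27704492 per library. NOTCH1 stood at 30.3 ± 1.8 CPM in EV and 28.3 ± 1.7 CPM in NICD1 (SD, n = 3), NOTCH2 at 31.3 ± 1.4 CPM in EV and 41.8 ± 1.4 CPM in NICD2, NOTCH3 at 10.4 ± 0.82 CPM in EV and 11.7 ± 0.2 CPM in NICD3, and NOTCH4 at 1.66 ± 0.43 CPM in EV and 1.99 ± 0.21 CPM in NICD4. How reads from the vectors were counted is not stated. The NOTCH2 and NOTCH3 libraries lay above EV where their own domain was expressed, and those of NOTCH1 and NOTCH4 overlapped it. This rise was not particular to the matching domain: NOTCH2 libraries also lay above EV in NICD1 and NICD4 (36.5 and 40.2 CPM). Those of NOTCH3 did so in NICD1 and NICD4 too (12.6 and 14.1 CPM). The NOTCH target HES1 was at 19.4 ± 0.63 CPM in EV and at 39.7, 105, 48.7 and 57.1 CPM in NICD1 to NICD4.

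The promoters of 7 of the 10 genes held an exact ER stress response element in the 300 bases searched, from 250 before to 50 after the annotated start (RefSeq, GRCh38.p14). The first motif, ERSE, was searched as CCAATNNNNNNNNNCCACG on both strands and occurred in 27 of 35116 promoter windows (0.0769%). The second, ERSE-II, was searched as ATTGG and CCACG separated by 1 base, on both strands, and occurred in 19 of them (0.0541%). Counted by gene, 25 of 27305 held ERSE and 19 held ERSE-II, the members included. Such elements are known from promoters of chaperone and degradation genes like the members, so these counts are a description and not a test. ERSE was found for HSPA5, HSP90B1, XBP1, CALR and CANX, and ERSE-II for HERPUD1 and SDF2L1. No exact match stood in the windows of ATF6, DNAJB9 and PDIA4, which says only that these letters are absent there. The sequences of the 5 genes that were higher than EV in at least 3 comparisons on the TMM scale are shown 5′ to 3′ along the gene, with the match in capitals. This choice rests on the expression result, and the matches of HSP90B1 and CANX are not printed. In CALR and SDF2L1 the match is in the reverse direction, so its capitals read as the reverse complement of the motif. HSPA5 is at chr9:125241379-125241421 on the minus strand, XBP1 at chr22:28800591-28800633 on the minus strand, CALR at chr19:12938372-12938414, HERPUD1 at chr16:56932013-56932047 and SDF2L1 at chr22:21642102-21642136, these last on the plus strand.
HSPA5: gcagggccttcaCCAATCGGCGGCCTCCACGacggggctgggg
XBP1: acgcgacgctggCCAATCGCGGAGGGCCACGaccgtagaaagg
CALR: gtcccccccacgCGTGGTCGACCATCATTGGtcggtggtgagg
HERPUD1: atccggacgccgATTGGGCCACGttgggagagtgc
SDF2L1: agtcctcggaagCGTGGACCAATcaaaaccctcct

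**Figure D1:**
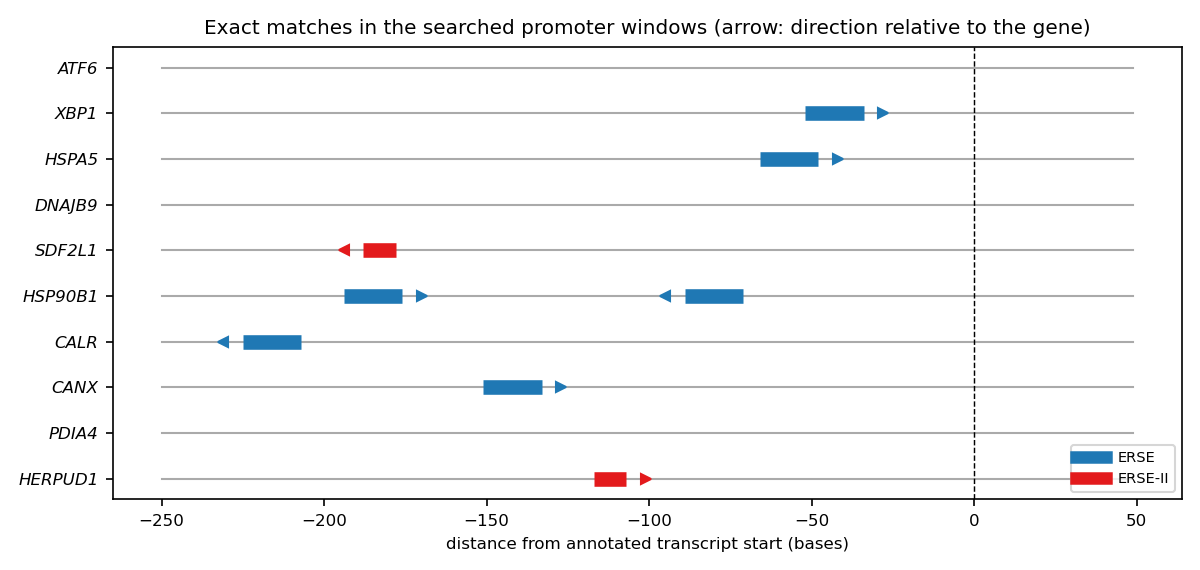
Positions of exact ERSE (blue) and ERSE-II (red) matches in the promoter windows of the 10 genes, in bases from the annotated transcript start (dashed line), with arrows for direction. The matches lie between 225 and 34 bases before the start, HSP90B1 has 2, and ATF6, DNAJB9 and PDIA4 have none.

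Against EV, SDF2L1, CALR, HSPA5 and HERPUD1 rose in all 4 NICD groups, HSPA5 and HERPUD1 not so when libraries were scaled by total count alone. SDF2L1 rose between 2.54-fold and 4.89-fold, CALR between 1.52-fold and 2.18-fold, HERPUD1 between 1.26-fold and 1.8-fold and HSPA5 between 1.19-fold and 1.34-fold. Levels here are CPM scaled by trimmed mean of M values (TMM) factors, and a gene is called when limma's p, adjusted over the 15122 genes, is under 0.05. In NICD1, 5 members were called higher where 35.6% of all tested genes were, and 3 lower where 39.8% were. In NICD2, 5 members were higher against 29.6% of all genes and 1 was lower against 30.0%. The NICD3 counts were 5 higher against 33.0% and 1 lower against 36.2%, and those of NICD4 were 5 higher against 37.3% and 4 lower against 43.6%. In both directions together, 8, 6, 6 and 9 of the 10 members were called in NICD1 to NICD4, where 75.4%, 59.5%, 69.2% and 80.9% of all genes were, so the share called is near the background and is not a result about these genes. The median change of the members was 0.20, 0.21, 0.17 and 0.18 on the log2 scale in NICD1 to NICD4, beside −0.08, −0.03, −0.07 and −0.12 over all tested genes. These 4 comparisons share the EV libraries.

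The direction of the smaller changes depended on scaling. When libraries were scaled by total count alone, the median change of all tested genes moved to −0.53, −0.31, −0.48 and −0.66 in NICD1 to NICD4, and the members' median to −0.26, −0.08, −0.25 and −0.37. SDF2L1 and CALR were called higher in all 4 groups under that scaling too, and HERPUD1 in NICD2, so that 2, 3, 2 and 2 members were higher, where 21.9%, 18.8%, 19.9% and 24.1% of all tested genes were. The members called lower were 6, 4, 5 and 7, where 56.2%, 44.1%, 54.6% and 58.7% of all genes were. The 2 scalings differ by a factor that all genes of a library share. Relative to the median of all genes, the change of each member therefore differed by at most 0.009 between them. This follows from the scaling itself and does not decide between the 2. The TMM factors ran from 1.21 to 1.32 in the EV libraries and from 0.79 to 1.09 in the NICD libraries. They did not overlap, so the factor cannot be told apart from the comparison with EV. Together the 10 genes took between 0.461% and 0.496% of the counted reads in every library. This share uses no TMM factor. CALR, HSP90B1 and HSPA5 weigh most in it, with 1133, 1110 and 590 TMM-scaled CPM in EV, so it says little about the others. In bulk RNA, fewer cells with a transcript and less of it per cell cannot be told apart.

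**Figure D2:**
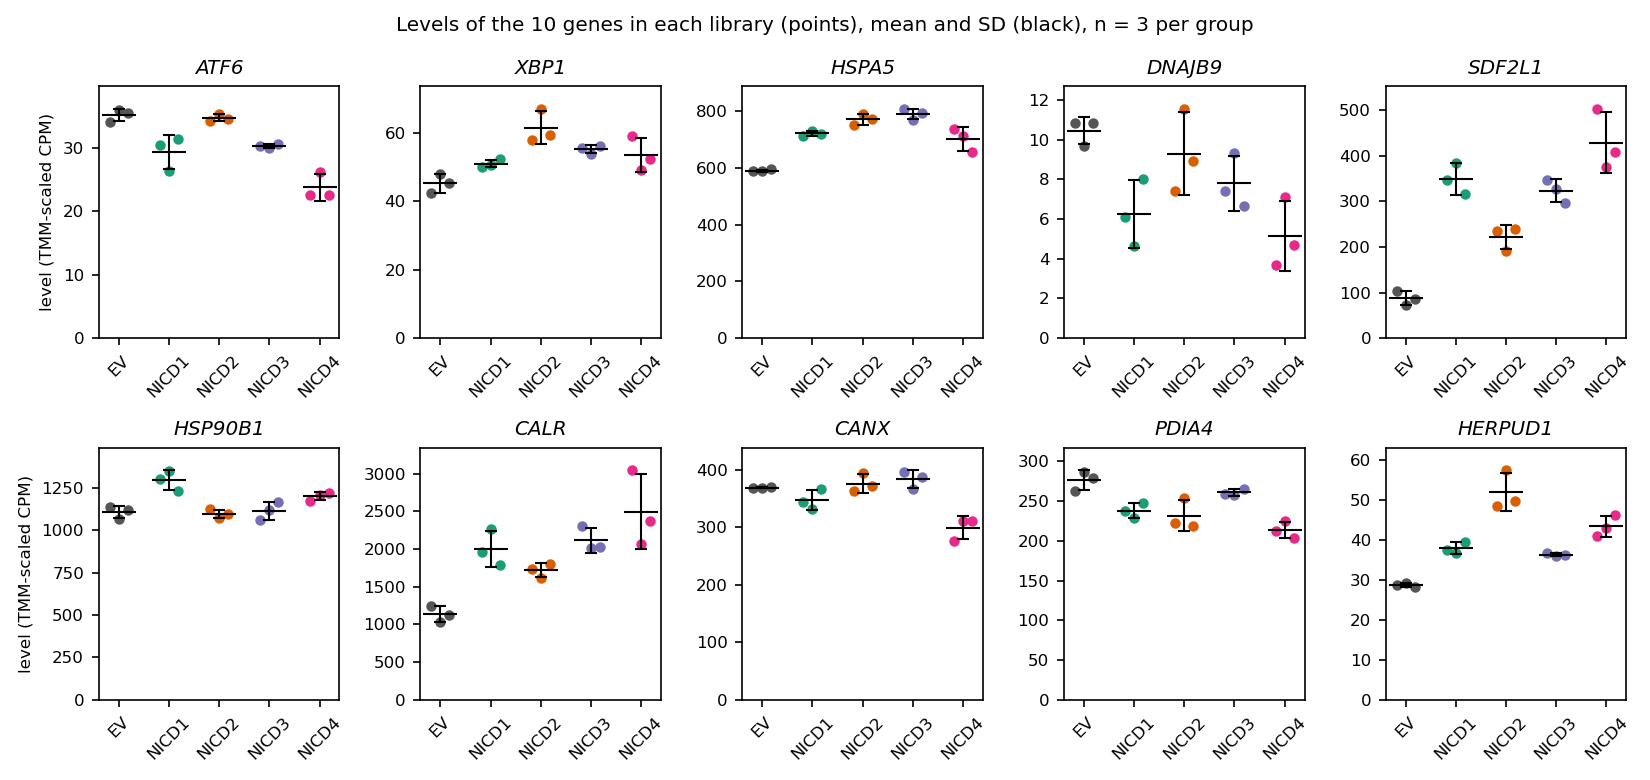
Level of each of the 10 genes in TMM-scaled CPM (linear axes from 0) in the 5 groups, with 1 point per library and black bars for mean and SD, n = 3. On this scale all NICD libraries lie above all EV libraries for SDF2L1, CALR, HSPA5 and HERPUD1, and all NICD4 libraries lie below EV for ATF6, CANX, DNAJB9 and PDIA4.

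Of the 2 transcription factors, ATF6 was lower than EV in 3 groups and XBP1 was higher in 3 on the TMM scale. ATF6 (ENSG00000118217), the membrane-bound factor freed by cutting in the Golgi, was at 34.0, 35.9 and 35.5 CPM in the EV libraries. It was at 30.5, 26.4 and 31.4 CPM in NICD1, at 34.3, 35.4 and 34.6 CPM in NICD2, at 30.3, 30.0 and 30.6 CPM in NICD3, and at 22.5, 26.2 and 22.6 CPM in NICD4. NICD2 overlapped EV, whereas every library of NICD1, NICD3 and NICD4 lay below it. The log2 change was −0.26 ± 0.08 (SE) in NICD1 with adjusted p = 0.0097, −0.21 ± 0.08 in NICD3 with adjusted p = 0.031 and −0.57 ± 0.08 in NICD4 with adjusted p = 1.5e-05 (limma). Without NICD1 replicate 2 the NICD1 change was −0.18 with adjusted p = 0.060. The NICD3 call was lost, at changes between −0.22 and −0.19, when any library of NICD3 or EV replicate 2 or 3 was left out, and with no filter on low counts (adjusted p = 0.082). Under total-count scaling ATF6 was called lower in all 4 groups, at −0.72, −0.30, −0.63 and −1.11. ATF6 has the lowest GC content of the 10 (41.4%, pooled over its annotated transcripts), and once the trend of log2 level with GC was removed in each library its direction turned: it was called higher in all 4 groups, by 0.31, 0.27, 0.25 and 0.20.

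XBP1 (ENSG00000100219), the factor activated by IRE1 splicing, was at 42.3, 48.0 and 45.4 CPM in EV. Its levels were 50.1, 50.7 and 52.2 CPM in NICD1, 58.0, 67.0 and 59.4 CPM in NICD2, 55.5, 53.8 and 56.1 CPM in NICD3 and 59.1, 49.3 and 52.4 CPM in NICD4. No NICD library fell within the EV range. XBP1 rose by 0.44 ± 0.08 in NICD2 (adjusted p = 0.00038), 0.29 ± 0.08 in NICD3 (adjusted p = 0.0062) and 0.24 ± 0.08 in NICD4 (adjusted p = 0.013). None of the 3 held under total-count scaling, where 0.16 in NICD2 (adjusted p = 0.17) and −0.13 in NICD3 (adjusted p = 0.23) did not pass. Under that scaling NICD1 (−0.28) and NICD4 (−0.30) were called lower. On the TMM scale the NICD1 change of 0.18 ± 0.08 did not pass (adjusted p = 0.065), and passed without EV replicate 2 (0.22) or NICD4 replicate 1 (0.17). The NICD4 call was lost without EV replicate 1 or NICD4 replicate 1, at changes of 0.17 to 0.20, and with no filter on low counts (0.18) or upper quartile scaling (0.18). XBP1 was called higher in all 4 groups once the GC trend was removed.

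HSPA5 (ENSG00000044574), the central Hsp70 chaperone of the ER, was higher in every NICD group by a small amount on the TMM scale. It was at 587.5, 587.7 and 594.7 CPM in EV, at 713.7, 730.5 and 719.7 CPM in NICD1, and at 750.5, 789.6 and 772.4 CPM in NICD2. The NICD3 libraries stood at 806.1, 769.9 and 792.4 CPM and the NICD4 libraries at 737.6, 711.8 and 656.2 CPM. Every NICD library was above every EV library. The log2 changes were 0.29, 0.39, 0.42 and 0.25, each ± 0.07, with adjusted p between 0.00012 and 0.0052. Under total-count scaling HSPA5 was called lower in NICD4 (−0.30), and the values of −0.17, 0.10 and 0.0009 in NICD1 to NICD3 did not pass. On the TMM scale the NICD4 call was lost when EV and NICD4 alone were fitted (adjusted p = 0.061).

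DNAJB9 (ENSG00000128590), an Hsp40 partner of HSPA5 that also holds IRE1 in check, is the least abundant member and was counted with between 41 and 314 reads per library. Its levels were 10.8, 9.70 and 10.8 CPM in EV, 6.12, 4.64 and 8.04 CPM in NICD1, 7.42, 11.6 and 8.93 CPM in NICD2, 7.43, 9.34 and 6.64 CPM in NICD3 and 3.71, 7.11 and 4.67 CPM in NICD4. The NICD2 libraries overlapped EV and those of the other groups lay below it. DNAJB9 fell by 0.77 ± 0.24 in NICD1 (adjusted p = 0.0093) and by 1.06 ± 0.24 in NICD4 (adjusted p = 0.00083), and the values of −0.19 and −0.43 in NICD2 and NICD3 did not pass. Without NICD1 replicate 2 the NICD1 change was −0.57 with adjusted p = 0.052. Under total-count scaling DNAJB9 was called lower in NICD1 (−1.22), NICD3 (−0.85) and NICD4 (−1.60), and −0.47 in NICD2 did not pass. No comparison with EV was called once the GC trend was removed, at changes of −0.25, 0.07, −0.01 and −0.35. THAP5 and PNPLA8, genes on the opposite strand that overlap the 5′ end of DNAJB9 in GENCODE release 29, held between 98 and 742 and between 27 and 386 reads per library, and without stated strand the reads of the overlap cannot be told apart.

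SDF2L1 (ENSG00000128228), a lumenal protein that works with HSPA5 and ERdj3, changed the most. It was at 104, 73.2 and 86.2 CPM in EV and at 348, 385 and 316 CPM in NICD1. NICD2 had 235, 191 and 240 CPM, NICD3 had 346, 328 and 297 CPM, and NICD4 had 503, 375 and 409 CPM. The lowest NICD library, at 191 CPM, was well above the highest EV library, at 104 CPM. The log2 changes were 2.00, 1.34, 1.89 and 2.29, each ± 0.14, with adjusted p between 5.3e-09 and 1.9e-06. SDF2L1 has the highest GC content of the 10 (66.1%), and with the GC trend removed the changes were 1.01, 0.84, 1.14 and 0.98, all called.

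HSP90B1 (ENSG00000166598), the ER Hsp90 known as GRP94, stayed within a narrow range on the TMM scale. Its levels were 1139, 1070 and 1120 CPM in EV, 1303, 1349 and 1234 CPM in NICD1, 1124, 1076 and 1098 CPM in NICD2, 1059, 1118 and 1167 CPM in NICD3 and 1175, 1206 and 1222 CPM in NICD4. The NICD1 and NICD4 libraries lay above EV, and those of NICD2 and NICD3 overlapped it. HSP90B1 was called higher in NICD1, by 0.22 ± 0.08 (adjusted p = 0.015). Without NICD1 replicate 2 the change was 0.19 with adjusted p = 0.061, and with upper quartile scaling it was 0.14 with adjusted p = 0.089. Under total-count scaling HSP90B1 was called lower in all 4 groups, at −0.24, −0.30, −0.41 and −0.43. On the TMM scale the values in NICD2, NICD3 and NICD4 were −0.01, 0.01 and 0.11, with 95% limits of −0.18 to 0.15, −0.16 to 0.17 and −0.05 to 0.28. With the GC trend removed (HSP90B1 has 42.4% GC) it was called higher in all 4, by 0.72, 0.23, 0.41 and 0.80.

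The 2 lectin chaperones, which bind monoglucosylated glycoproteins, differed: CALR in the lumen rose in each group, and CANX in the membrane was called in NICD4, where it was lower. CALR (ENSG00000179218) was at 1239, 1032 and 1127 CPM in EV, 1959, 2264 and 1792 CPM in NICD1, and 1735, 1617 and 1805 CPM in NICD2. It was at 2307, 2016 and 2023 CPM in NICD3 and at 3042, 2068 and 2373 CPM in NICD4. No NICD library overlapped EV, and NICD4 replicate 1 was the highest of all. The log2 changes were 0.82, 0.60, 0.90 and 1.12, each ± 0.13, with adjusted p between 2.4e-06 and 0.0015, and 0.53, 0.44, 0.65 and 0.74 with the GC trend removed, all called. Under total-count scaling they were 0.36, 0.32, 0.48 and 0.58, all called.

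CANX (ENSG00000127022) was at 368.6, 368.7 and 369.1 CPM in EV. It was at 343, 332 and 366 CPM in NICD1, 362, 393 and 371 CPM in NICD2, 397, 367 and 387 CPM in NICD3 and 275, 310.3 and 310.5 CPM in NICD4. NICD1 and NICD4 lay below EV, and NICD2 and NICD3 spread around it. The NICD4 group was called, at −0.31 ± 0.08 (adjusted p = 0.0018), and the values of −0.09, 0.03 and 0.05 in NICD1 to NICD3 did not pass. With the GC trend removed the direction turned in NICD1 and NICD4, and CANX was called higher in all 4, by 0.25, 0.18, 0.31 and 0.20. Under total-count scaling CANX was called lower in all 4, at −0.55, −0.26, −0.36 and −0.85. The read ratio of CALR to CANX within a library was chosen for inspection after the data were seen. It needs no scaling for depth but is not free of the GC trend (CALR 55.4% GC, CANX 44.9%). The ratio was 3.07 ± 0.28 in EV (SD, n = 3) and 5.81 ± 0.97, 4.59 ± 0.42, 5.52 ± 0.3 and 8.45 ± 2.3 in NICD1 to NICD4, with no overlap with EV. With the GC trend removed the CALR changes were 0.53, 0.44, 0.65 and 0.74, smaller than on the TMM scale.

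PDIA4 (ENSG00000155660), a protein disulfide isomerase also called ERp72, was called lower than EV in 3 groups on the TMM scale. It was at 262, 287 and 279 CPM in EV, 237, 229 and 247 CPM in NICD1 and 223, 254 and 219 CPM in NICD2. NICD3 had 259, 258 and 266 CPM and overlapped EV, and NICD4 had 213, 224 and 203 CPM. The changes were −0.21 ± 0.08 in NICD1 (adjusted p = 0.022), −0.25 ± 0.08 in NICD2 (adjusted p = 0.012) and −0.37 ± 0.08 in NICD4 (adjusted p = 0.00047), and −0.08 ± 0.08 in NICD3 did not pass. The NICD1 call was lost without EV replicate 2 or 3 or NICD1 replicate 1 or 2 (−0.21 to −0.18), and the NICD2 call without NICD2 replicate 1 or 3 (−0.23 to −0.22). PDIA4 was called lower in all 4 groups with the GC trend removed, at −0.40, −0.37, −0.25 and −0.60. It was also called lower in all 4 under total-count scaling, at −0.67, −0.54, −0.50 and −0.92. The read ratio of PDIA4 to HSPA5 was 0.468 ± 0.021 in EV and 0.33 ± 0.015, 0.301 ± 0.02, 0.331 ± 0.008 and 0.304 ± 0.014 in NICD1 to NICD4.

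HERPUD1 (ENSG00000051108), a membrane protein of the ER-associated degradation complex around the ligase HRD1, rose in each group and most in NICD2. It was at 28.6, 29.2 and 28.2 CPM in EV, 37.3, 36.7 and 39.5 CPM in NICD1, and 48.5, 57.3 and 49.8 CPM in NICD2. The NICD3 libraries stood at 36.7, 36.0 and 36.1 CPM and the NICD4 libraries at 41.1, 42.9 and 46.1 CPM. No NICD library overlapped EV, and the NICD2 libraries lay above those of every other group. The changes were 0.40, 0.85, 0.34 and 0.59, each ± 0.08, with adjusted p between 3.3e-07 and 0.0011. Under total-count scaling NICD2 (0.57) was called, and the values of −0.06, −0.08 and 0.05 in NICD1, NICD3 and NICD4 did not pass. With the GC trend removed the changes were 0.52, 0.89, 0.42 and 0.82, all called.

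**Figure D3:**
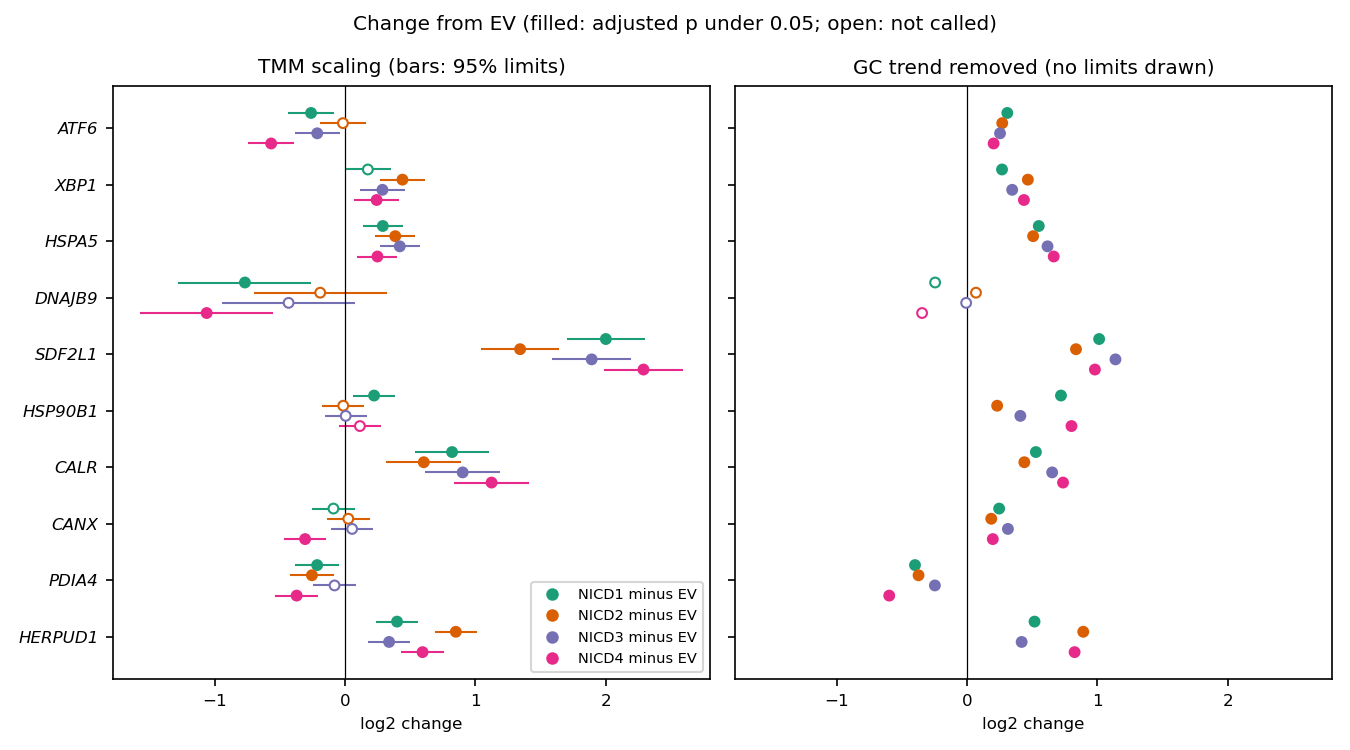
Log2 change from EV of the 10 genes in NICD1 to NICD4, with TMM scaling and 95% limits on the left and with the GC trend removed on the right, filled where the adjusted p is under 0.05. SDF2L1, CALR, HSPA5 and HERPUD1 are to the right of 0 in both panels, ATF6 lies at or left of 0 on the left and right of 0 on the right, and PDIA4 lies left of 0 in both.

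The members with more GC in their transcripts had the higher changes, in large part through SDF2L1. Across the 10 genes, Pearson's r between log2 change and GC percent was 0.85, 0.73, 0.89 and 0.85 in NICD1 to NICD4, given as a description over points that share the same libraries. Without SDF2L1, which has the highest GC and the largest change, r over the other 9 was 0.57, 0.39, 0.68 and 0.63. Over the 14737 tested genes with a GC value, r was 0.37, 0.22, 0.32 and 0.44. Genes under 45% GC, 4699 in all, had median changes of −0.61, −0.30, −0.48 and −0.80, and the 2311 genes over 60% GC had 0.76, 0.41, 0.57 and 1.04. Among the members only CALR (55.4%), PDIA4 (53.5%) and SDF2L1 (66.1%) have over 50% GC, and PDIA4 was the one of these that did not rise. Once the trend was removed, 8 members were called higher and 1 lower in each of the 4 groups. Over all tested genes 34.7%, 29.9%, 32.9% and 37.1% were then called higher in NICD1 to NICD4 and 35.8%, 29.6%, 33.2% and 37.9% lower. The members' medians were 0.41, 0.35, 0.38 and 0.55 beside −0.03, −0.01, −0.02 and −0.02 over all tested genes.

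**Figure D4:**
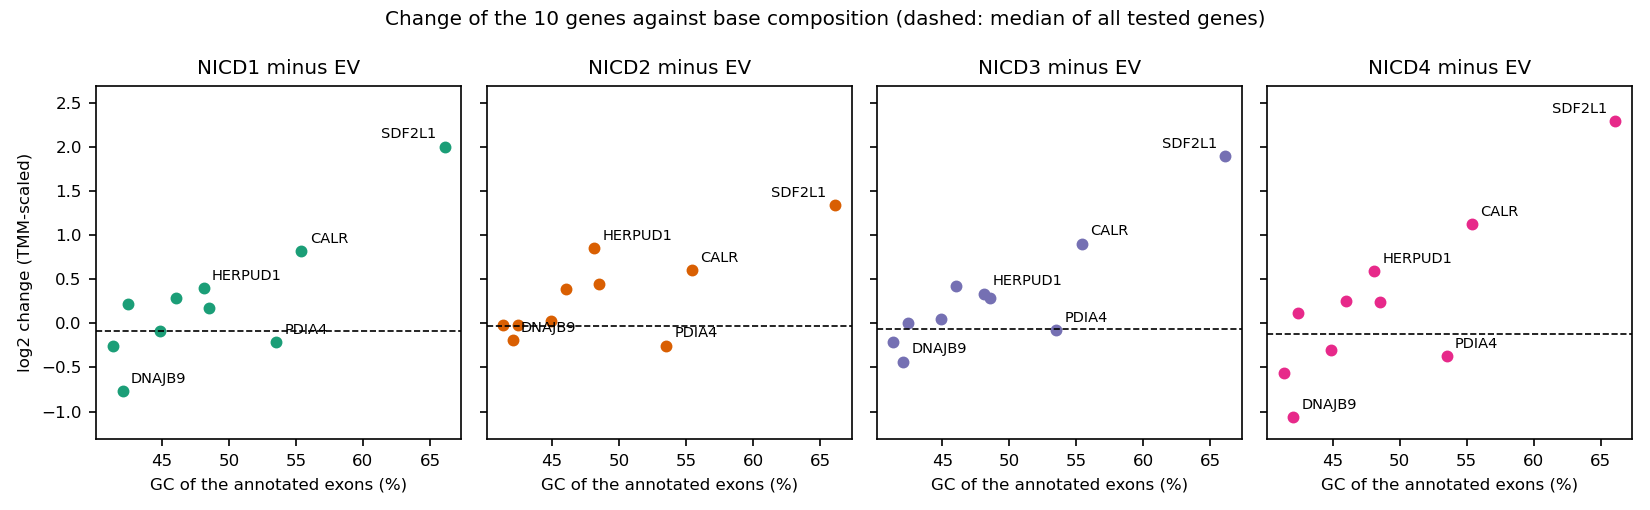
TMM-scaled log2 change of the 10 genes against GC percent in the 4 comparisons with EV, with a dashed line at the median of all tested genes. GC is pooled over the annotated transcripts of a gene, which the axis calls exons. SDF2L1, at 66.1% GC, is the highest point in each panel, DNAJB9, at 42.1% GC, is the lowest in NICD1, NICD3 and NICD4, and PDIA4, at 53.5% GC, lies below CALR and SDF2L1.

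Among the 4 NICD groups, 8 of the 10 members differed by the F-test, where 67.9% of all tested genes did. HSPA5 (adjusted p = 0.13) and XBP1 (adjusted p = 0.0504) did not pass. HERPUD1 was 0.45 ± 0.08 higher in NICD2 than in NICD1 (adjusted p = 0.0007), and SDF2L1 fell by 0.66 ± 0.14 in the same comparison (adjusted p = 0.0037), a call lost with the GC trend removed (−0.18, adjusted p = 0.075). In all, 5 members were called between NICD2 and NICD1, against 37.2% of all genes: HERPUD1, XBP1 and ATF6 were higher in NICD2 and SDF2L1 and HSP90B1 lower. The 3 smaller differences were 0.27 for XBP1, 0.24 for ATF6 and −0.24 for HSP90B1. XBP1 lost its call without NICD1 replicate 1 or 2 or NICD2 replicate 2, ATF6 without NICD1 replicate 2 or any NICD2 library, and HSP90B1 without NICD1 replicate 1 or 2 or NICD2 replicate 2 or 3, with values of 0.20 to 0.26, 0.17 to 0.25 and −0.23 to −0.21. In the fit without the GC trend, XBP1 (0.20) and ATF6 (−0.04) were not called, and under total-count scaling HSP90B1 (−0.06) was not. No member was called between NICD3 and NICD1, where 6.72% of all genes were.

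Between NICD4 and NICD2, 7 members were called where 63.5% of all genes were, a share near the background. SDF2L1 was 0.95 ± 0.14 higher in NICD4 (adjusted p = 9.3e-05), but 0.15 with the GC trend removed (adjusted p = 0.10). CALR was 0.52 ± 0.13 higher (adjusted p = 0.0038), and 0.30 with the GC trend removed (adjusted p = 0.024). DNAJB9, ATF6, CANX, HERPUD1 and XBP1 were lower in NICD4, with changes of −0.87, −0.55, −0.33, −0.26 and −0.20, of which none was called with the GC trend removed (−0.41, −0.07, 0.01, −0.07 and −0.03). CALR was thus the 1 of the 7 still called in that fit, where HSP90B1 (0.57) and PDIA4 (−0.22) were called as well. The HERPUD1 call was lost without NICD2 replicate 2 (−0.18), and that of XBP1, with adjusted p = 0.046, in 11 of the 15 fits that left out 1 library (−0.22 to −0.14), all but those without EV replicate 1 or 2, NICD2 replicate 1 or NICD4 replicate 1. Between NICD4 and NICD3, 6 members were called against 49.0% of all genes: SDF2L1 (0.40) and HERPUD1 (0.26) were higher in NICD4 and ATF6 (−0.35), CANX (−0.36), DNAJB9 (−0.63) and PDIA4 (−0.29) lower. The SDF2L1 call was lost without NICD3 replicate 2 or 3 or NICD4 replicate 1 or 3 (0.27 to 0.43), and with the GC trend removed its value turned to −0.16. HERPUD1 lost its call without NICD4 replicate 3 (0.21) and under total-count scaling (0.13), and DNAJB9 without any EV library, NICD1 replicate 1, NICD3 replicate 1 or 2 or NICD4 replicate 1 or 3 (−0.66 to −0.42) and with the GC trend removed (−0.34).

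Fewer members were called between the other pairs. SDF2L1 was 0.55 ± 0.14 higher in NICD3 than in NICD2 (0.30 with the GC trend removed, still called) and HERPUD1 fell by 0.51 ± 0.08, and these were the 2 members called, against 15.0% of all genes. Leaving out NICD2 replicate 2 or NICD3 replicate 1 or 2 ended the SDF2L1 call (0.44 to 0.54). ATF6 (−0.31) and CANX (−0.22) were lower in NICD4 than in NICD1, the 2 members called against 27.2% of all genes. CANX lost that call without replicate 2 or 3 of EV or NICD3 and without replicate 1 or 3 of NICD1, NICD2 or NICD4, each left out alone (−0.25 to −0.16), and ATF6 without NICD1 replicate 1 or 3 or NICD4 replicate 3 (−0.28 to −0.26). Once the GC trend was removed, neither CANX nor ATF6 was called between any pair of NICD groups, while HERPUD1 was called between NICD2 and NICD1 (0.37) and between NICD3 and NICD2 (−0.47). In that fit 2 members differed between NICD2 and NICD1 (31.2% of all genes), 0 between NICD3 and NICD1 (9.54%), 1 between NICD4 and NICD1 (27.0%), 2 between NICD3 and NICD2 (16.2%), 3 between NICD4 and NICD2 (53.7%), 3 between NICD4 and NICD3 (44.4%) and 4 by the F-test (62.1%).

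Per kilobase of exon, CALR was the most abundant member in all 5 groups, at 417 ± 38 RPKM (CPM divided by exon length in kilobases, SD, n = 3) in EV. In EV it was followed by HSP90B1 (236 ± 7.6 RPKM), HSPA5 (151 ± 1), PDIA4 (84.2 ± 3.8), SDF2L1 (80 ± 14), CANX (59.2 ± 0.04), XBP1 (14.9 ± 0.94), HERPUD1 (5.56 ± 0.1), ATF6 (4.45 ± 0.13) and DNAJB9 (3.69 ± 0.23). PDIA4 and SDF2L1 overlapped, and the other neighbours in this order did not. In NICD1, NICD3 and NICD4 SDF2L1 stood in second place, at 318, 295 and 390 RPKM, and in NICD2 it overlapped HSPA5 at 202 and 197 RPKM. The read ratio of SDF2L1 to HSPA5 within a library, without correction for length or GC (66.1% and 46.0%), was 0.149 ± 0.027 in EV and 0.485 ± 0.044, 0.289 ± 0.041, 0.41 ± 0.03 and 0.611 ± 0.078 in NICD1 to NICD4. That of HSP90B1 to HSPA5 was 1.88 ± 0.059 in EV and 1.8 ± 0.071, 1.43 ± 0.067, 1.41 ± 0.087 and 1.72 ± 0.14 in the NICD groups, with NICD2 and NICD3 below EV and the others overlapping it.

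Lists of the other arms of the response held genes called in both directions. Their counts are to be read against the shares of all tested genes in the same comparisons: 35.6%, 29.6%, 33.0% and 37.3% higher and 39.8%, 30.0%, 36.2% and 43.6% lower on the TMM scale, 21.9%, 18.8%, 19.9% and 24.1% higher and 56.2%, 44.1%, 54.6% and 58.7% lower under total-count scaling, and 34.7%, 29.9%, 32.9% and 37.1% higher and 35.8%, 29.6%, 33.2% and 37.9% lower with the GC trend removed.

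Of 5 tested sensor and cleavage genes, 1, 2, 1 and 1 were called higher and 3 lower in each group, with median changes of −0.88, −0.51, −0.67 and −0.82 beside the medians of all tested genes given above. Under total-count scaling 0 were higher and 4, 3, 4 and 5 lower. After removal of the GC trend, 2 were higher in each group and 3, 2, 3 and 2 lower, and the NICD4 median was −0.11. EIF2AK3 (PERK), ATF6B (a relative of ATF6) and MBTPS1 (the Golgi protease that makes the first cut in ATF6) were lower in all 4 groups. ATF6B was at 32.6 ± 1.3 CPM in EV and at 14.6, 19.1, 17.8 and 13.9 CPM in NICD1 to NICD4, with changes of −1.16, −0.77, −0.88 and −1.23. MBTPS1 was at 125 ± 8.9 CPM in EV and at 68.2, 88.1, 78.5 and 57.2 CPM in the NICD groups. Both were called lower with the GC trend removed as well. EIF2AK3 was at 5.99 ± 0.64 CPM in EV and changed by −1.30, −0.66, −1.02 and −0.82. In NICD2 its adjusted p was 0.041 and the call was lost without EV replicate 1, 2 or 3, NICD2 replicate 1 or 3, NICD3 replicate 3 or NICD4 replicate 3 (−0.75 to −0.54), and with the GC trend removed the NICD2 and NICD4 changes of −0.41 and −0.11 did not pass. RTCB, the ligase that joins the cut XBP1 mRNA, was called higher by 0.35, 0.31, 0.32 and 0.32, and its values were −0.11, 0.03, −0.10 and −0.22 under total-count scaling. ERN1, which encodes IRE1, had between 0 and 16 reads per library and was not tested.

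In the PERK and ATF4 branch, 4, 6, 3 and 6 of 10 tested genes were higher and 3, 4, 3 and 3 lower in NICD1 to NICD4, with medians of 0.13, 0.31, 0.03 and 0.40. Under total-count scaling 3, 4, 2 and 4 were higher and 6, 4, 7 and 5 lower. Once the GC trend was removed, 4, 6, 3 and 4 were higher and 5, 4, 5 and 4 lower, with medians of −0.04, 0.32, −0.17 and 0.08. ATF4 itself was called higher in NICD2, from 297 ± 12 to 375 ± 12 CPM (0.33 ± 0.07, adjusted p = 0.00087), a change of 0.05 that did not pass under total-count scaling. Its values in the other groups were 0.07, 0.03 and 0.03, and with the GC trend removed they were called lower, at −0.22, −0.22 and −0.35. CHAC1, a glutathione-degrading enzyme induced by ATF4, was at 3.85 ± 0.41 CPM in EV and rose to levels of 9.78, 14.6, 9.49 and 16.8 CPM, changes of 1.34, 1.92, 1.29 and 2.11 that were 0.61, 1.55, 0.72 and 1.11 with the GC trend removed. CEBPB, a leucine zipper transcription factor like ATF4, rose by 1.70, 1.46, 1.37 and 1.33. In the fit without the GC trend, its values were 0.71, 0.95, 0.61 and 0.02, and the last of these, in NICD4, did not pass. NUPR1, a small nuclear stress protein, fell by 1.76, 2.56, 2.12 and 1.41, from 34 to 44 reads in the EV libraries to 3 to 9 in the NICD libraries. Its mean was 1.447 CPM in EV and 0.39, 0.21, 0.29 and 0.53 CPM in NICD1 to NICD4. These NICD means lie under the level asked by the filter on low counts, which the EV libraries met. The filter therefore favoured a fall for NUPR1, and the direction of its calls is not an independent result. DDIT3 (CHOP), the stress factor linked to cell death, rose in NICD1 (0.36), NICD2 (0.68) and NICD4 (0.55), which under total-count scaling were −0.09, 0.40 and 0.0088 with NICD2 alone called. Its value in NICD3 was −0.09 and did not pass, but was called lower under total-count scaling (−0.51). Without EV replicate 2 its NICD1 change was 0.29 with adjusted p = 0.059. PPP1R15A (GADD34), which reverses the translational block, was lower in all 4, from 91.8 ± 3.2 CPM in EV to 52.6, 44.1, 52.1 and 60.4 CPM, and its NICD4 change of −0.60 was −1.20 with the GC trend removed. TRIB3, an ATF4 and CHOP target, was higher in all 4, by 0.81, 0.83, 0.44 and 1.08, but with the GC trend removed NICD3 turned to −0.09 and NICD2 (0.49) alone was called. The values of TRIB3 in NICD1 and NICD4 were then 0.14 (adjusted p = 0.13) and 0.15 (adjusted p = 0.11), and under total-count scaling that of NICD3 was 0.02 and did not pass. The NICD3 call of TRIB3 was lost without EV replicate 2 (0.39) or NICD3 replicate 1 (0.36).

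Other folding genes went both ways. Of 12 tested HSPA5 cofactors and chaperones, 5, 5, 6 and 5 were higher and 6, 4, 5 and 6 lower, with medians of −0.20, −0.02, 0.11 and −0.37. Under total-count scaling 3 were higher in each group and 7, 5, 5 and 7 lower, and with the GC trend removed 5, 5, 6 and 4 were higher and 4, 4, 3 and 3 lower. The largest changes of the list were falls. CLGN, a relative of CANX, fell by 3.04, 2.37, 2.61 and 2.80, from 31 to 53 reads in the EV libraries to 0 to 10 in the NICD libraries. Its mean was 1.425 CPM in EV and 0.21, 0.23, 0.22 and 0.17 CPM in NICD1 to NICD4. These NICD means lie under the level asked by the filter on low counts, which the EV libraries met. The filter therefore favoured a fall for CLGN, and the direction of its calls is not an independent result. SERPINH1, the collagen chaperone HSP47, fell by 2.32 in NICD1, 1.16 in NICD3 and 2.99 in NICD4. Its NICD2 libraries, at 24.9, 63.5 and 25.7 CPM against 53.6, 72.1 and 65.8 CPM in EV, overlapped EV and the value of −0.88 did not pass. It passed without NICD1 replicate 2 (−0.88) or NICD2 replicate 2 (−1.32), with voom weights (−0.86) and when EV and NICD2 alone were fitted (−0.88). The NICD3 call of SERPINH1 was lost without EV replicate 2 or 3 or NICD3 replicate 1 (−1.13 to −0.95). FKBP14, a prolyl isomerase, fell by 1.28, 0.83, 1.34 and 1.22, and with the GC trend removed the changes were −0.60, −0.47, −0.77 and −0.31, the last of which did not pass. MANF, a lumenal protein that binds HSPA5, stood at 126 ± 17 CPM in EV and rose to 326, 252, 327 and 369 CPM in NICD1 to NICD4, where the changes of 1.38, 1.00, 1.38 and 1.55 were 1.33, 0.95, 1.32 and 1.54 with the GC trend removed. SIL1, a nucleotide exchange factor of HSPA5, rose by 1.64, 0.74, 1.21 and 2.00.

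Of 11 tested disulfide isomerases and oxidases, 4 were higher in each group and 4, 0, 3 and 5 lower, with medians of 0.03, 0.06, 0.02 and −0.13. Under total-count scaling 1, 2, 1 and 1 were higher and 7, 4, 6 and 7 lower, and with the GC trend removed 5, 5, 5 and 7 were higher and 4, 1, 2 and 4 lower. P4HB, the founding isomerase, rose from 637 ± 33 CPM to 989, 858, 1012 and 1126 CPM. Its changes of 0.63, 0.43, 0.67 and 0.82 were 0.20, 0.20, 0.31 and 0.22 with the GC trend removed and 0.18, 0.15, 0.25 and 0.27 under total-count scaling, all called. PDIA6, a further isomerase, was at 61.5, 92.0 and 78.8 CPM in EV and at 23.03, 11.1 and 30.5 CPM in NICD1, 29.3, 39.04 and 42.6 CPM in NICD3 and 6.33, 17.6 and 10.6 CPM in NICD4, changes of −1.94, −1.06 and −2.85. The NICD2 libraries of PDIA6, at 41.1, 82.3 and 38.6 CPM, spread into the EV range and did not pass. Its NICD3 call was lost without EV replicate 2 or 3 or NICD3 replicate 1 (−1.04 to −0.90).

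Among genes of protein entry into the ER, more were called higher than lower on the TMM scale and with the GC trend removed, but not in NICD1 under total-count scaling. Of 17 tested genes of translocation and signal peptide removal, 11, 9, 10 and 11 were called higher and 1, 1, 1 and 5 lower in NICD1 to NICD4, with medians of 0.43, 0.22, 0.33 and 0.56. Under total-count scaling the counts were 5, 6, 6 and 7 higher and 7, 5, 5 and 6 lower, and with the GC trend removed 13, 10, 13 and 14 higher and 1, 0, 0 and 2 lower. SSR4, a subunit of the translocon-associated complex, rose from 149 ± 27 CPM to 327, 238, 308 and 425 CPM, changes of 1.15, 0.68, 1.05 and 1.52 that were 0.57, 0.39, 0.59 and 0.71 with the GC trend removed. SEC11C, a signal peptidase subunit, rose from 43.5 ± 6.5 CPM to 91.7, 101, 104 and 93.6 CPM. SEC61G, a small subunit of the channel, rose by 1.12, 0.76, 0.97 and 1.24, and by 1.74, 1.07, 1.48 and 2.07 with the GC trend removed.

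Degradation, glycoprotein and export genes were split. Of 16 tested genes of ER-associated degradation, 4, 6, 5 and 5 were higher and 8, 5, 7 and 8 lower, with medians of −0.30, −0.08, −0.12 and −0.43. Under total-count scaling 2, 3, 1 and 2 were higher and 12, 7, 10 and 13 lower. After removal of the GC trend, 5 were higher in each group and 7, 3, 4 and 5 lower, and the NICD4 median turned to 0.06. EDEM1, a lectin that hands misfolded glycoproteins to degradation, was lower in all 4, from 13.1 ± 1.3 CPM to 6.29, 8.01, 6.93 and 6.05 CPM. Of 8 tested genes of glycoprotein quality control, 5, 2, 4 and 4 were higher and 2 lower in each group, with medians of 0.45, 0.11, 0.31 and 0.32. Under total-count scaling 1, 2, 2 and 3 were higher and 3, 4, 3 and 4 lower. Once the GC trend was removed, 2, 2, 4 and 4 were higher and 2, 3, 0 and 4 lower, with medians of 0.01, −0.08, 0.03 and −0.02. UGGT2, a relative of the folding sensor UGGT1, fell by 1.24, 0.86, 0.73 and 1.77, and with the GC trend removed its changes were −0.53, −0.49, −0.15 and −0.84, of which −0.15 in NICD3 did not pass. LMAN1, a lectin that carries glycoproteins to the Golgi, fell by 0.99, 0.44, 0.64 and 1.41. In the fit without the GC trend, its changes were −0.33, −0.10, −0.09 and −0.53, and those of NICD2 and NICD3 did not pass. The NICD2 call of LMAN1 was also lost without EV replicate 2 or 3 or NICD2 replicate 1 or 3 (−0.45 to −0.35).

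Of 12 tested genes of COPII and Golgi traffic, 6, 5, 4 and 4 were higher and 6, 1, 5 and 6 lower, with medians of −0.11, 0.06, −0.15 and −0.12. Under total-count scaling 1, 2, 1 and 1 were higher and 8, 5, 8 and 8 lower. After removal of the GC trend, 5, 5, 5 and 6 were higher and 3, 1, 3 and 4 lower, with medians of 0.15, 0.18, 0.02 and 0.19. SEC24D, a cargo adaptor of the coat, fell by 1.61 in NICD1, 1.21 in NICD3 and 1.68 in NICD4. Its NICD2 value of −0.57 did not pass, but passed without NICD1 replicate 2 (−0.57) or NICD2 replicate 2 (−0.84), with voom weights (−0.54) and under total-count scaling (−0.85). SEC31A, an outer coat subunit, was lower in all 4, from 22 ± 1.2 CPM to 9.72, 8.02, 8.51 and 9.3 CPM. Of 6 tested genes whose mRNAs IRE1 is reported to cut, 4, 3, 3 and 4 were higher and 2, 3, 2 and 1 lower, with medians of 0.54, −0.10, 0.31 and 0.68. Under total-count scaling 2, 1, 2 and 3 were higher and 2, 3, 3 and 3 lower, and with the GC trend removed 3 were higher in each group and 2, 3, 2 and 2 lower. BLOC1S1, the best known of these, rose from 11.3 ± 3.2 CPM to 51.4, 26.1, 39.4 and 62.5 CPM.

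**Figure D5:**
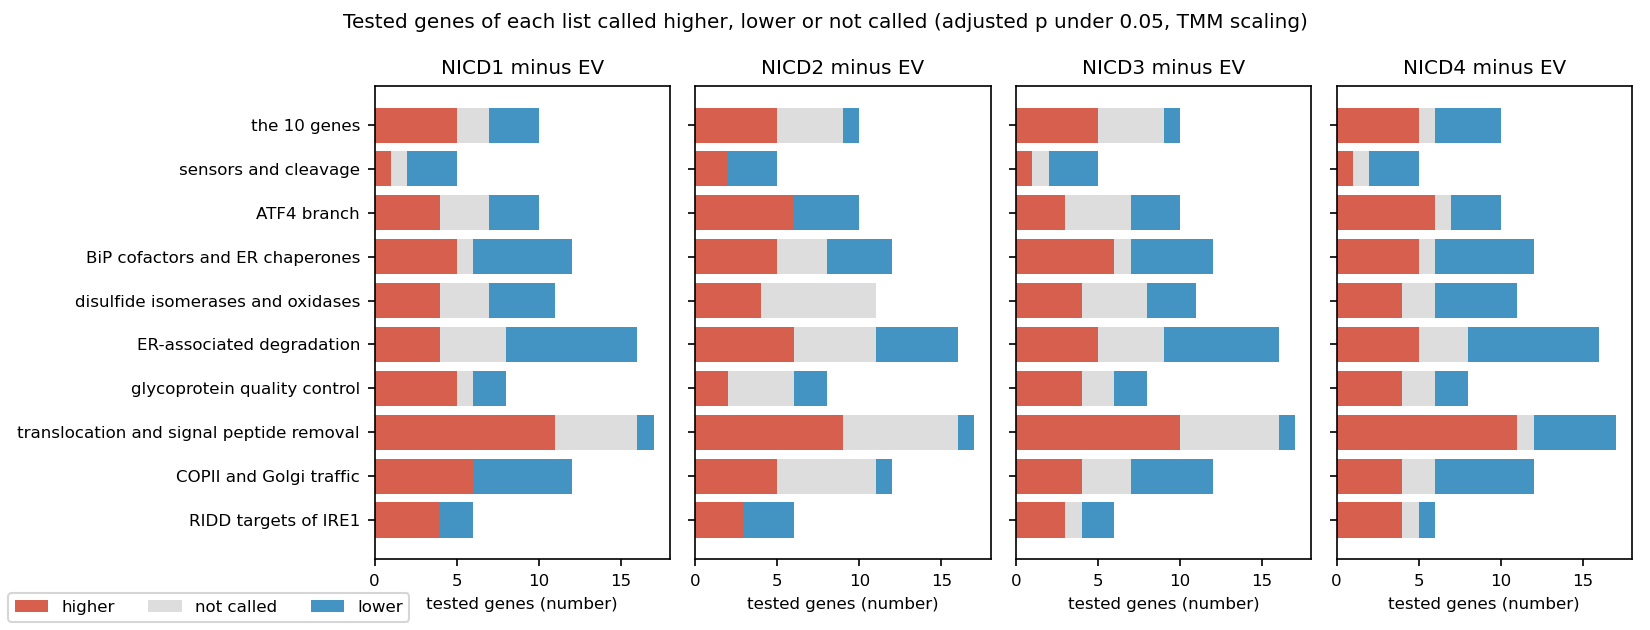
Number of tested genes called higher (red), lower (blue) or not called (grey) in each list of the response, beside the 10 genes, in the 4 comparisons with EV under TMM scaling. The list of translocation and signal peptide removal has 11, 9, 10 and 11 of 17 genes in red, and the other lists hold both colours in most comparisons.

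Genes outside the 10 whose promoter window held an exact ERSE or ERSE-II did not all move with the members that hold one. Of 24 such tested genes, 12, 10, 13 and 13 were called higher and 11, 5, 8 and 10 lower in NICD1 to NICD4, with median changes of 0.09, 0.10, 0.27 and 0.30 beside −0.08, −0.03, −0.07 and −0.12 over all tested genes. These counts stand beside 35.6%, 29.6%, 33.0% and 37.3% of all genes higher and 39.8%, 30.0%, 36.2% and 43.6% lower. Under total-count scaling 6, 5, 7 and 6 of the 24 were higher and 12, 9, 10 and 13 lower. Once the GC trend was removed, 9, 10, 10 and 10 were higher and 9, 7, 5 and 8 lower, with medians of −0.02, 0.16, 0.07 and −0.04. HYOU1, an ER Hsp110 with such a match, changed by −0.61, −0.45, −0.12 and −0.86, and the −0.12 in NICD3 did not pass. The NICD2 call of HYOU1 (adjusted p = 0.046) was lost without EV replicate 2 or 3, NICD1 replicate 1, NICD2 replicate 1 or 3, any NICD3 library or NICD4 replicate 3 (−0.45 to −0.34). CRELD2, a stress-induced lumenal protein with a match, rose by 0.56, 0.53, 0.76 and 0.74, and with the GC trend removed its values of 0.02, 0.26, 0.32 and −0.0065 did not pass, nor did those of 0.10, 0.25, 0.34 and 0.20 under total-count scaling. HYOU1 and CRELD2 were chosen for mention after their values were seen.

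The 5 genes whose log2 level followed that of HSPA5 most closely over the 15 libraries, among 11470 candidates with an average of at least 1 log2 CPM, were KLHDC10, CEP41, CCT3, AKIP1 and PEA15, with Pearson's r from 0.955 to 0.972. CCT3 was at 898 CPM in EV and at 1229, 1327, 1357 and 1257 CPM in NICD1 to NICD4. Against the mean standardised level of the 10 members they were GANAB, GOT1, SIRT5, UQCC1 and HTATIP2, with r from 0.953 to 0.964. Between pairs of members r ran from −0.82 (CALR and ATF6) to 0.97 (SDF2L1 and CALR), so that mean does not stand for each member. GANAB, a subunit of glucosidase II, which trims glycans for CALR and CANX, was at 277 CPM in EV and at 365, 419, 420 and 297 CPM in NICD1 to NICD4. The libraries fall into 5 groups and share their scaling, so these values are a description.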

How the data were processed

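The authors deposited log2 of the read count plus 1 per gene, unscaled, per the file headers. Undoing it gave whole numbers within 0.001 for 100% of values. The submitters' processing notes name TopHat2 2.0.6, HTSeq and GRCh37. Settings, annotation release and strand were not given in the sources used here. The file's unit is log2, so no negative-binomial test was used. Genes with at least 0.548 CPM (10 reads at the median depth) in 3 libraries and 15 reads in all were tested. Levels were scaled by TMM factors, 1 scaled read (0.0545 CPM) was added before log2, which understates changes of low genes, and 1 mean per group was fitted over all 15 libraries in limma 3.58.1 with R 4.3.3 (trended, robust variance). The p-values are two-sided and adjusted by Benjamini and Hochberg over the 15122 tested genes. The F-test was over NICD1 to NICD4. GC content was pooled over all GENCODE release 29 transcript sequences of a gene, so bases shared by several transcripts count more than once. It was known for 97.5% of tested genes, and the alternative fit subtracted a lowess curve with a span of 0.3 in each library. The fit was also run on simulated counts with changes planted in a small set of genes in NICD1. That run does not show how the fit performs where most genes are called, as here against EV.

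All members were named, and genes of the other lists were taken from the up to 4 called genes with the largest changes in each list and comparison, not all of which are described, plus 7 fixed genes (ERN1, EIF2AK3, ATF6B, ATF4, DDIT3, PPP1R15A and TRIB3). The members and lists were chosen with earlier results of these data known. The alternatives were pseudocounts of 0.5 and 5, no filter, median-of-ratios, upper quartile and total-count scaling, voom weights, only the groups compared, the GC trend removed, the replicate number as a block and each library left out.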

Additional observations from a re-analysis of the deposited data

How the results depend on the processing

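Pseudocounts of 0.5 and 5 changed no member call. A reversal here and below is a turned sign with a call in either fit, so not every value listed was itself called. Total-count scaling gave 2, 3, 2 and 2 members higher and 6, 4, 5 and 7 lower in NICD1 to NICD4 against EV. It reversed HSPA5 in NICD1 (−0.17) and NICD4 (−0.30), HSP90B1 in NICD1 (−0.24), NICD3 (−0.41) and NICD4 (−0.43), XBP1 in NICD1 (−0.28), NICD3 (−0.13) and NICD4 (−0.30), HERPUD1 in NICD1 (−0.058) and NICD3 (−0.080), CANX in NICD2 (−0.26) and NICD3 (−0.36), ATF4 in NICD1 (−0.39), NICD3 (−0.39) and NICD4 (−0.52), RTCB in NICD1 (−0.11), NICD3 (−0.098) and NICD4 (−0.22), and DDIT3 in NICD1 (−0.094).

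Removing the GC trend, with or without the replicate block, gave 8 members higher in each group and 1 lower in each, and 2, 1, 3 and 3 members between NICD2 and NICD1, NICD4 and NICD1, NICD4 and NICD2, and NICD4 and NICD3, and 4 by the F-test. It reversed HSP90B1 in NICD2 (0.23), CANX in NICD1 (0.25) and NICD4 (0.20), ATF6 in NICD1 to NICD4 (0.31, 0.27, 0.25, 0.20), ATF4 in NICD1, NICD3 and NICD4 (−0.22, −0.22, −0.35) TRIB3 in NICD3 (−0.094) and CRELD2 in NICD4 (−0.0065) against EV, and SDF2L1 between NICD4 and NICD3 (−0.16), CANX between NICD4 and NICD2 (0.012) and ATF6 between NICD2 and NICD1 (−0.039). The cause was not tested.

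With no filter, 0 members were lower in NICD3 against EV and 3 differed between NICD2 and NICD1. With only the groups compared, 2 members were lower in NICD3, 3 higher in NICD4 and 0 differed between NICD4 and NICD1, where upper quartile scaling and the replicate block each left 1. Replicate numbers did not pair the libraries: 13 of 30 same-number pairs had r over 0.1 (−0.43 to 0.36), 6 of 15 libraries correlated best with their own number, and the block changed no other count by over 1.5 times.

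Leaving out 1 library gave 4 to 6, 5, 5 and 4 to 5 members higher and 0 to 3, 0 to 1, 0 to 1 and 4 lower in NICD1 to NICD4 against EV. Between NICD groups it gave 2 to 6 (NICD2 and NICD1), 0 (NICD3 and NICD1), 0 to 3 (NICD4 and NICD1), 1 to 2 (NICD3 and NICD2), 5 to 7 (NICD4 and NICD2) and 3 to 7 (NICD4 and NICD3), and 5 to 9 by the F-test. Depth limits DNAJB9 (41 to 314 reads) most.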
